A study of Mus musculus with 31 samples.

Results

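The genes described here are 10 genes that are known to rise in astrocytes after injury or inflammation of the brain. They are Gfap, Vim, Lcn2, Serpina3n, Cd44, Steap4, Timp1, Osmr, Cp and S1pr3, chosen by their symbols, and all 10 are among the 15648 genes of the count table. Bulk RNA-seq measured the transcripts of all cells of the left hippocampus together in 31 adult OT-I/Rag-/- mice, with a library for each mouse. In these mice, which lack the recombination gene Rag1, the T cells are CD8+ cells with a transgenic receptor for a peptide of chicken ovalbumin (OVA), and no other mature T or B cells form. The rAAV-OVA mice were injected in the dorsal CA1 of both hemispheres with rAAV-hSyn-OVA-mCherry. The rAAV-control mice were injected in the same way with rAAV-hSyn-mCherry, which carries no OVA. The hSyn promoter drives both vectors in neurons, not in astrocytes. Hippocampi were taken 2, 5, 8 or 28 days after injection from 4 mice per vector and day, except for 3 rAAV-control mice at 8 days. No group was left uninjected, so the rAAV-control mice at 28 days are the lowest reference at hand. Between 19046977 and 57407902 counts were assigned per mouse. Levels are given in CPM, that is, counts scaled to a common library size after TMM normalization.

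Astrocytes respond to damage, cytokines and blood-borne proteins with a change of state known as reactive astrogliosis. They thicken their intermediate filaments, secrete acute-phase proteins, protease inhibitors and matrix factors, and expose receptors for cytokines and lipids. Cytokines of the interleukin-6 family act on astrocytes through gp130 and STAT3, while interleukin-1 and TNF act through NF-κB. These genes are not exclusive to astrocytes: Vim, Cd44, Osmr and Timp1 are also transcribed by vascular and immune cells, Lcn2 by neutrophils and Cp by the choroid plexus. In bulk tissue, more cells of a type and more RNA per cell cannot be told apart.

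The promoters of the 10 genes were searched on both strands for 3 motifs: TTCNNNGAA, which STAT proteins bind, TGANTCA, which AP-1 binds, and the NF-kB consensus. The windows span 250 bases before to 50 bases after each start of a gene in RefSeq on GRCm38.p6. All 10 genes had a window, and Cp had 2, which gives 11 windows. TTCNNNGAA was found in 2 of the 10 genes (8.3% of all 32851 promoters), the NF-kB consensus in 2 (4.51%) and TGANTCA in 2 (7.81%). The stretches around the upstream matches are shown because they are the places where the promoters of Gfap, Vim, Steap4 and Cp hold these letters, with each match in capitals.
Gfap, chr11:102897194-102897222, minus strand: aggctattcaatgggggtgcTTCCAGGAA
Steap4, chr5:7960222-7960404, plus strand: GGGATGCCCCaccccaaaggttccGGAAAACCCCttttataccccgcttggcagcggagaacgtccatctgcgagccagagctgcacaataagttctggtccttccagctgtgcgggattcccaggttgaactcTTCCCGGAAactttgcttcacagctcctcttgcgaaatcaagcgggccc
Vim, chr2:13574068-13574137, plus strand: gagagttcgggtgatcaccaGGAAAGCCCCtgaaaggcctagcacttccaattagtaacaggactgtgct
Cp, chr3:19956857-19956923, plus strand: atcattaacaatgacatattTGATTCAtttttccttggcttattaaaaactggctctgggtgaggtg
The Gfap match to TTCNNNGAA begins 2 bases before the transcript start, and the Steap4 match begins 116 bases before it. Steap4 also holds 2 matches to the NF-kB consensus on the opposite strand, 250 and 226 bases upstream, and Vim holds 1 at 223 bases. The TGANTCA match of Cp lies only in the first of its 2 windows, 177 bases upstream of that start, and that of Osmr begins at base 4 of the transcript. A match is a description of these letters only. In the other members, Lcn2, Serpina3n, Cd44, Timp1 and S1pr3, none of the 3 motifs was found in this window.

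The 3 mice that lay farthest from the rest of their group over the 10 genes were singled out after the data were seen. In rAAV-control mouse D720 at 8 days, the 10 genes lay on average 2.92 log2 units above the other mice of the group, and in rAAV-control mouse D743 at 2 days 1.91 units above them. In rAAV-OVA mouse D844 at 28 days they lay 2.65 units below, and 0 of 10 genes were above the group. The next farthest mouse was D696, at −1.57 units among rAAV-control mice at 8 days, and several other mice also had all 10 genes on the same side of their group. D720 also had a summed level of T cell markers of 41.4 CPM against 3.14 and 4.01 CPM in the other rAAV-control mice of that day, and D844 had 32.5 CPM, the lowest sum of its group. Results that rest on these mice are given with and without them. Of the 31 mice, 23 were in the batch labelled 1 and 8 in the batch labelled 2. The batches were mixed at 2 and 28 days, with 2 mice per batch in every group, whereas batch 1 alone supplied the mice of 5 and 8 days.

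**Figure D1:**
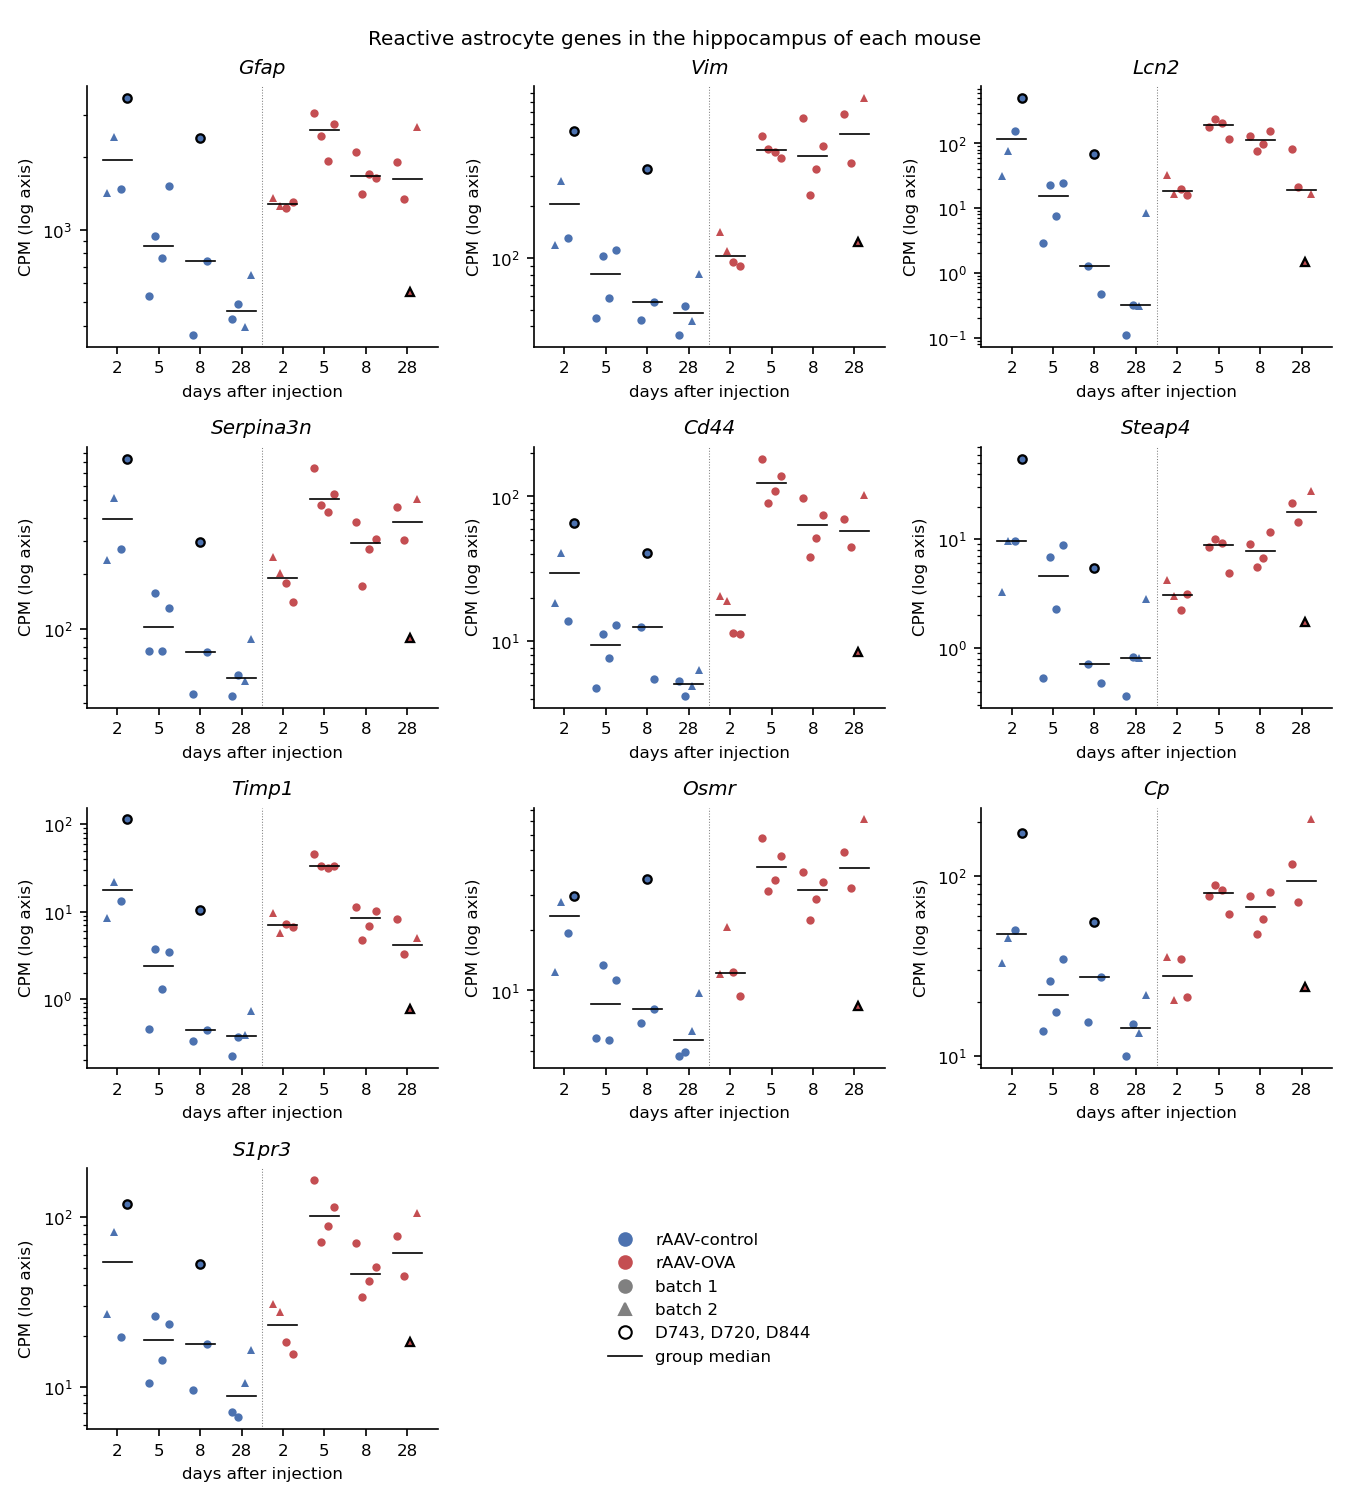
Level of each of the 10 genes in every mouse, in CPM on a log axis, against days after injection, with rAAV-control mice to the left and rAAV-OVA mice to the right of the dotted line. Circles are batch 1, triangles batch 2, bars group medians, and black outlines mark D743, D720 and D844, of which D743 and D720 lie above and D844 below the other mice of their groups.

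The comparison of rAAV-control mice at 2 days with rAAV-control mice at 28 days sets an early against a late day after injection without the antigen. All mice received the analgesic ketoprofen before surgery and on the first days after it. The parts of injection, drug, vector expression and age in this difference were not tested. All 10 genes were higher at 2 days than at 28 days, by a log2 fold change (Log2FC) of 1.49 for Osmr to 6.08 for Timp1. Each of the 10 passed the limits of an FDR of at most 0.05 and a Log2FC of at least 0.66 in edgeR's quasi-likelihood test, with FDR values from 0.0011 to 0.03. Of all 15648 genes, 2.82% passed in this direction. For each of the 10 genes, the lowest mouse at 2 days also lay above the highest mouse at 28 days, which was the case for 8.83% of all genes. This separation was complete for 10 of 10 genes in batch 1 alone and for 10 of 10 in batch 2 alone, each with 2 mice against 2, which was the case for 26.2% and 20.9% of all genes. Without D743, the mouse with the highest levels, 3 of 10 passed, which were Gfap, Serpina3n and Timp1, and the Log2FC values ran from 1.30 for Cp to 4.76 for Timp1. Without D843 or D705, 6 of 10 passed, and without D706 7 of 10. Without D743, D720 and D844 together, all 10 passed again.

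Gfap (ENSMUSG00000020932.15) encodes the glial fibrillary acidic protein, the main intermediate filament of astrocytes. At 2 days it was at 1427, 2421, 1485 and 3536 CPM in the 4 rAAV-control mice, and at 28 days at 425, 494, 395 and 648 CPM. Every mouse at 2 days was thus above every mouse at 28 days, and the Log2FC was 1.95 (SE 0.40, FDR 0.0061). At 5 days, the levels of 531 to 1517 CPM overlapped those at 2 days, and the Log2FC of 1.19 between 2 and 5 days did not pass (FDR 0.091). Vim (ENSMUSG00000026728.10) encodes vimentin, which forms filaments together with Gfap in reactive cells. It was at 118, 280, 130 and 546 CPM at 2 days and at 35.7, 52.4, 43.2 and 80.7 CPM at 28 days. Its lowest mouse at 2 days was above the 45 to 110 CPM of the 5 day mice as well, but the Log2FC of 1.70 between 2 and 5 days had an FDR of 0.055.

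Among the secreted proteins, Lcn2 and Timp1 showed the widest range. Lcn2 (ENSMUSG00000026822.15) encodes lipocalin 2, which binds iron-carrying siderophores of bacteria. It was at 31.9, 75.2, 155 and 507 CPM in rAAV-control mice at 2 days. At 28 days it was at 0.11, 0.32, 0.308 and 8.42 CPM, and the mouse at 8.42 CPM, D851, was far above the other three mice. The Log2FC was 5.88 (SE 1.22, FDR 0.0071), and without D743 it was 4.61 with an FDR of 0.052. Timp1 (ENSMUSG00000001131.12) encodes an inhibitor of matrix metalloproteases. It was at 8.56, 22.1, 13.2 and 114 CPM at 2 days, with D743 highest, and at 0.22, 0.366, 0.385 and 0.722 CPM at 28 days. Counts at 28 days were few, between 6 and 18 per library, and the Log2FC was 6.08 (SE 0.92, FDR 0.0011). Timp1 was also higher at 2 days than at 5 days, by 4.02 (SE 0.75, FDR 0.0074), and than at 8 days, by 4.37 (SE 0.90, FDR 0.025). Without D743 these values were 2.70 (FDR 0.048) and 2.99 (FDR 0.098).

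Serpina3n (ENSMUSG00000021091.9) encodes an inhibitor of serine proteases that include granzyme B. Its levels were 238, 516, 271 and 840 CPM at 2 days and 43.8, 56.4, 52.5 and 88.6 CPM at 28 days, and the groups did not overlap. It was the other gene of the 10 that passed against each later day, with a Log2FC of 2.09 against 5 days (SE 0.39, FDR 0.0073), 2.41 against 8 days (SE 0.46, FDR 0.024) and 2.65 against 28 days (SE 0.41, FDR 0.0011). Cp (ENSMUSG00000003617.17) encodes ceruloplasmin, a copper-carrying ferroxidase that astrocytes also make as a membrane-bound form. Cp was at 32.8, 45.4, 50.5 and 174 CPM at 2 days and at 9.92, 15.1, 13.4 and 21.7 CPM at 28 days, a Log2FC of 2.11 (SE 0.51, FDR 0.02). D743 held the value of 174 CPM, and without this mouse the Log2FC was 1.30 with an FDR of 0.23.

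Of the membrane proteins, Cd44 (ENSMUSG00000005087.18) encodes the receptor of the matrix polymer hyaluronan. It was at 18.5, 41.0, 13.8 and 65.4 CPM at 2 days and at 5.3, 4.21, 4.89 and 6.38 CPM at 28 days, a Log2FC of 2.45 (SE 0.52, FDR 0.0077). S1pr3 (ENSMUSG00000067586.5) encodes a receptor for sphingosine 1-phosphate. Its levels were 26.8, 82.3, 19.8 and 120 CPM at 2 days and 7.1, 6.64, 10.6 and 16.4 CPM at 28 days, and its Log2FC was 2.29 (SE 0.47, FDR 0.0064). Osmr (ENSMUSG00000022146.13) encodes the oncostatin M receptor, which pairs with gp130, and it had the smallest difference. Osmr was at 12.4, 27.5, 19.4 and 29.6 CPM at 2 days and at 4.68, 4.94, 6.31 and 9.74 CPM at 28 days. Its Log2FC of 1.49 (SE 0.39, FDR 0.03) no longer passed without surrogate variables (FDR 0.05, just above the limit). Steap4 (ENSMUSG00000012428.10) encodes a metalloreductase that reduces iron and copper at the membrane. It was at 3.26, 9.75, 9.7 and 55.1 CPM at 2 days and at 0.366, 0.824, 0.808 and 2.81 CPM at 28 days, a Log2FC of 3.63 (SE 0.88, FDR 0.019) that was 2.27 with an FDR of 0.23 without D743.

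Against the later control days in between, fewer of the genes passed. Against 5 days, Serpina3n, Cd44, Timp1 and S1pr3 were higher at 2 days (4 of 10, against 1.80% of all genes), and all 10 had a positive Log2FC. The groups did not overlap for Vim, Lcn2, Serpina3n, Cd44 and Timp1, 5 of 10 against 5.06% of all genes. Against 8 days, 2 of 10 passed, Serpina3n and Timp1 (0.415% of all genes), and with D720 among the mice at 8 days 0 of 10 were without overlap (3.01% of all genes). These counts depended on single mice and on the covariates. Without surrogate variables 0 of 10 passed in either comparison, in fits that called 11 of 15648 genes against 5 days and 0 against 8 days. Against 5 days the Log2FC was then 2.08 for Serpina3n, 4.11 for Timp1, 1.90 for Cd44 and 1.73 for S1pr3, close to the values with them. Against 5 days, 0 passed without D723 (21 of all genes called), 2 without each of D740, D743, BEC-R385, D724 and D745, 7 without BEC-B544 and 9 without D755 (523 of all genes). Against 8 days, 0 passed without D743, D696 or D722, when 7, 47 and 0 of all genes did, and 7 passed without D720, when 253 of all genes did. In D720 itself, Gfap was at 2413 CPM against 366 and 742 CPM in the other mice of the group, and Lcn2 at 68.7 CPM against 1.29 and 0.477 CPM.

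**Figure D2:**
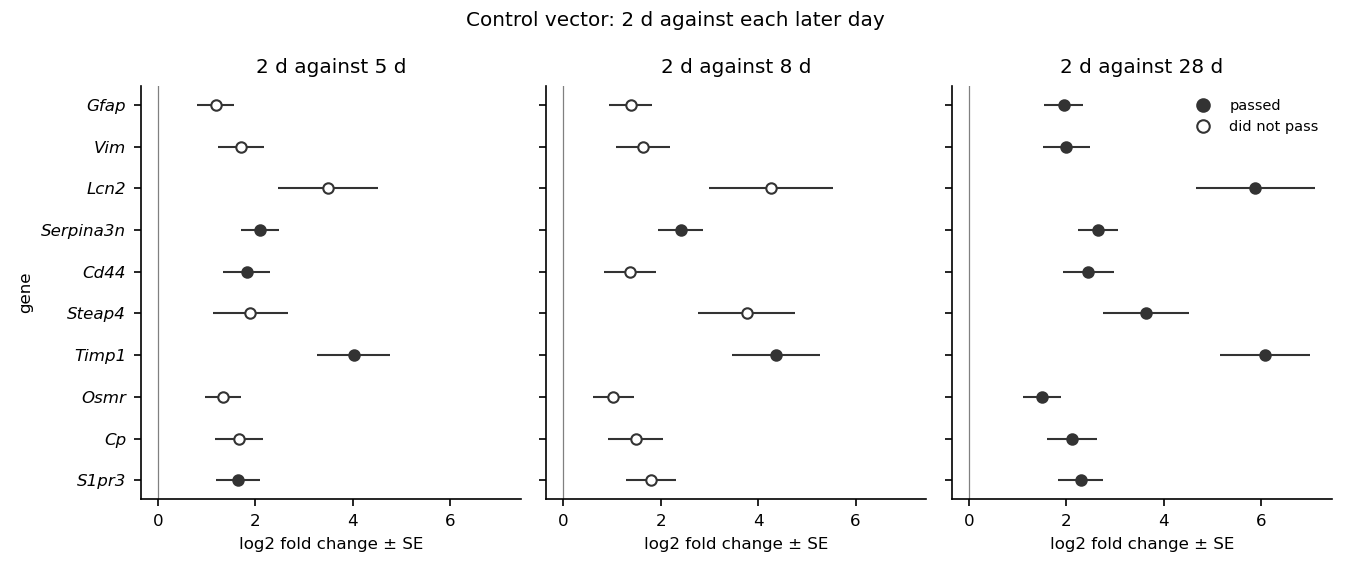
Log2FC with SE of each gene in rAAV-control mice at 2 days against rAAV-control mice at 5, 8 and 28 days, from the edgeR model. Filled points passed the limits; 4, 2 and 10 of 10 genes did so, and Timp1 lies farthest to the right in each panel.

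At 2 days, the vectors were compared while T cell markers summed to only 1.64 to 2.79 CPM in rAAV-OVA mice and 2.53 to 6.18 CPM in rAAV-control mice. Neutrophil markers summed to 7.07 to 10.3 against 12.6 to 54.7 CPM, without overlap. Monocyte markers summed to 69.8 to 152 against 122 to 285 CPM and microglia markers to 379 to 486 against 444 to 536 CPM, both with overlap. The part of these cells in the levels at 2 days was not tested. All 10 genes had a negative Log2FC, between −0.69 for Osmr and −2.83 for Lcn2, with a median of −1.16 against 0.01 over all genes. In edgeR's quasi-likelihood test 0 of 10 genes passed (FDR 0.37 to 0.59), as did 0% of all genes in either direction, and DESeq2's Wald test also called 0 of 10. At an unadjusted p under 0.05, 7 of 10 genes were lower, against 4.56% of all genes. Gfap was the only gene of the 10 without overlap, with 1352, 1262, 1235 and 1307 CPM in rAAV-OVA mice, all below the lowest rAAV-control mouse at 1427 CPM (1.94% of all genes lay fully below). The rAAV-OVA mice were close together, with an SD of 51.5 CPM for Gfap against 990 CPM in rAAV-control mice. Timp1 was likewise less spread, at 9.75, 5.76, 7.24 and 6.73 CPM in rAAV-OVA mice against 8.56 to 114 CPM in rAAV-control mice. In batch 1, which holds D743, all 10 genes of the rAAV-OVA mice lay below those of the rAAV-control mice, against 19% of all genes, while in batch 2 only Gfap did, 1 of 10 against 17.6% of all genes. Without the 3 mice that stood apart the Log2FC ran from −0.47 for Gfap to −1.92 for Lcn2, and 0 passed.

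At 5 days, 9 of the 10 genes had a positive Log2FC and 6 of 10 were higher in rAAV-OVA mice at the limits, against 9.56% of all genes. These were Vim, Serpina3n, Cd44, Timp1, Osmr and S1pr3. The lowest rAAV-OVA mouse lay above the highest rAAV-control mouse for 9 of 10 genes, all but Steap4, against 21% of all genes. Fitted values were lower with the surrogate variables than without them on this day. Without them 9 of 10 genes passed, with Gfap (Log2FC 1.44, FDR 0.013), Lcn2 (3.66, FDR 0.018) and Cp (1.76, FDR 0.0098) in addition, and the same 3 genes were gained without rAAV-control mouse D755.

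Cd44 and Timp1 had the largest Log2FC values of the 10 genes at 5 days, and their order depended on the fit. Cd44 was at 182, 90.6, 108 and 139 CPM in rAAV-OVA mice and at 4.79, 11.3, 7.72 and 12.9 CPM in rAAV-control mice, so that the groups were wide apart, with a Log2FC of 3.07 (SE 0.55, FDR 0.00026). Timp1 was at 46.0, 32.9, 31.7 and 32.9 CPM against 0.448, 3.73, 1.3 and 3.43 CPM (Log2FC 3.03, SE 0.80, FDR 0.0064). Without surrogate variables the values were 3.81 for Cd44 and 3.97 for Timp1. The other receptors among the genes that passed were S1pr3 and Osmr. S1pr3 was at 166, 71.2, 88.3 and 115 CPM against 10.6, 26.1, 14.4 and 23.6 CPM, a Log2FC of 1.85 (SE 0.49, FDR 0.0068). Osmr was at 57.9, 31.4, 35.5 and 47.1 CPM against 5.82, 13.3, 5.64 and 11.3 CPM, a Log2FC of 1.51 (SE 0.40, FDR 0.0071).

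Both filament genes were above the controls in every mouse at 5 days. Vim was at 513, 431, 409 and 380 CPM in rAAV-OVA mice and at 44.9, 103, 58.2 and 110 CPM in rAAV-control mice (Log2FC 1.69, SE 0.52, FDR 0.017). Gfap was at 3054, 2452, 1925 and 2758 CPM against 531, 945, 763 and 1517 CPM, and its Log2FC of 0.85 (SE 0.42) had an FDR of 0.13 with the surrogate variables. Of the secreted proteins, Serpina3n passed, at 744.6, 470, 431 and 542 CPM against 76.7, 157, 76.7 and 130 CPM (Log2FC 1.61, SE 0.42, FDR 0.0061). Lcn2 was at 181, 237, 208 and 115 CPM against 2.91, 22.7, 7.64 and 24.6 CPM without passing (Log2FC 2.39, SE 1.09, FDR 0.10). Cp was at 77.7, 89.8, 84.1 and 61.5 CPM against 13.7, 26.2, 17.5 and 34.7 CPM (Log2FC 1.30, FDR 0.07). Steap4 differed from the other genes in its spread, with 8.41, 10.1, 9.19 and 4.85 CPM against 0.537, 6.91, 2.3 and 8.88 CPM, and its groups overlapped. Its Log2FC was −0.05 (SE 0.84, FDR 0.97) and became 0.79 without surrogate variables (FDR 0.48).

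**Figure D3:**
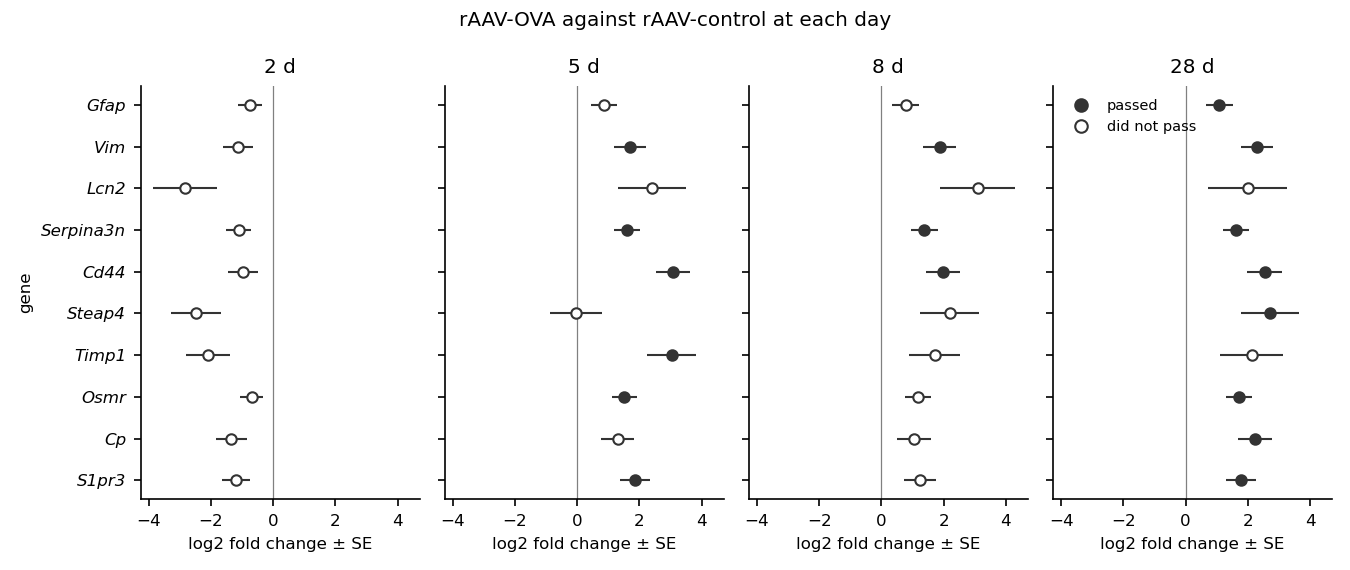
Log2FC with SE of each gene in rAAV-OVA against rAAV-control mice at 2, 5, 8 and 28 days, from the edgeR model. Filled points passed the limits; 0, 6, 3 and 8 of 10 genes did so, all points lie below 0 at 2 days and all but Steap4 at 5 days lie above 0 later.

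At 8 days, all 10 genes had a positive Log2FC, with a median of 1.54 against −0.03 over all genes, and Vim, Serpina3n and Cd44 passed (3 of 10, against 9.36% of all genes). Only Lcn2 and Steap4 were without overlap, 2 of 10 against 14.4% of all genes, and for the other genes D720 lay within or above the range of the rAAV-OVA mice. Vim was at 645, 230, 330 and 447 CPM in rAAV-OVA mice and at 43.6, 329 and 55.3 CPM in rAAV-control mice, with D720 at 329 CPM (Log2FC 1.87, SE 0.54, FDR 0.019). Cd44 was at 98.2, 38.3, 52.0 and 74.4 CPM against 12.5, 40.6 and 5.45 CPM (Log2FC 1.98, SE 0.55, FDR 0.014). Serpina3n had a Log2FC of 1.38 (SE 0.44, FDR 0.031). Osmr, at 22.5 to 38.8 CPM against 6.85, 35.9 and 8.08 CPM, missed the limit with an FDR of 0.051. Lcn2 was at 129, 77.5, 97.6 and 154 CPM against 1.29, 68.7 and 0.477 CPM, and its Log2FC of 3.09 (SE 1.21) had an FDR of 0.076. Without the 3 mice that stood apart, of which D720 is in this comparison, the Log2FC of Lcn2 was 6.83 (FDR 0.0013), that of Timp1 4.32 in place of 1.71, and that of Steap4 3.69 in place of 2.19. The count at 8 days was the least stable of the 4 days. It was 0 without surrogate variables, 8 without D720, 10 without the 3 mice that stood apart, 0 without D701 or D722, 1 without D700 or D696 and 2 without D702.

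At 28 days, 8 of 10 genes were higher in rAAV-OVA mice, all but Lcn2 and Timp1, against 12.7% of all genes. All 10 had a positive Log2FC, with a median of 2.06 against 0.01 for the whole table. No overlap between the groups was seen for Vim, Serpina3n, Cd44, Timp1, Cp and S1pr3, 6 of 10 against 15% of all genes. In batch 1 the rAAV-OVA mice were above the rAAV-control mice for 10 of 10 genes (30% of all genes) and in batch 2, which holds D844, for 6 of 10 (30.2% of all genes). Without surrogate variables, and without the 3 mice that stood apart, 10 of 10 passed, and in DESeq2's Wald test 7 of 10, with Gfap lost (FDR 0.053). Gfap and Steap4 did not pass without each of D661, D667, D843 and D706, and Gfap did not pass without D851 or D844.

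Steap4 had the largest Log2FC of the 10 genes at 28 days, 2.72 (SE 0.94, FDR 0.028). It was at 21.7, 14.3, 1.76 and 27.8 CPM in rAAV-OVA mice, with D844 at 1.76 CPM, and at 0.366, 0.824, 0.808 and 2.81 CPM in rAAV-control mice. The other gene of metal handling, Cp, was at 118, 71.5, 24.2 and 207 CPM against 9.92 to 21.7 CPM, a Log2FC of 2.23 (SE 0.56, FDR 0.0044). Cd44 was at 70, 44.9, 8.41 and 102 CPM against 4.21 to 6.38 CPM (Log2FC 2.55, SE 0.56, FDR 0.0017), and even D844 lay above every control. The filament gene Vim was at 688, 356, 124 and 848 CPM against 35.7 to 80.7 CPM (Log2FC 2.30, SE 0.52, FDR 0.0022). Gfap was at 1906, 1347, 554 and 2674 CPM against 395 to 648 CPM, with D844 inside the control range, and its Log2FC of 1.09 (SE 0.42, FDR 0.046) was just within the limit.

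The remaining genes that passed at 28 days were Osmr, S1pr3 and Serpina3n. Osmr was at 49.4, 32.4, 8.38 and 71.5 CPM against 4.68 to 9.74 CPM (Log2FC 1.72, SE 0.41, FDR 0.0034). S1pr3 had a Log2FC of 1.78 (SE 0.49, FDR 0.0084) and Serpina3n of 1.61 (SE 0.42, FDR 0.006). Lcn2 was spread over a wide range in rAAV-OVA mice, with 81.0, 21.3, 1.48 and 16.3 CPM, and in rAAV-control mice D851 stood at 8.42 CPM, so the Log2FC of 2.00 (SE 1.27) had an FDR of 0.23. Timp1 was at 8.19, 3.28, 0.758 and 5 CPM against 0.22 to 0.722 CPM. D844 was only just above the highest control, and the Log2FC of 2.13 (SE 1.01) had an FDR of 0.11. Without the 3 mice that stood apart the Log2FC was 3.72 for Lcn2 (FDR 0.0086) and 3.41 for Timp1 (FDR 0.00032), and for the other genes it ran from 1.83 for Gfap to 3.92 for Steap4.

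Within the rAAV-OVA mice, 1 of 10 genes passed between 2 and 5 days, Cd44 with a Log2FC of 2.23 (SE 0.54, FDR 0.0081), against 6.24% of all genes in this direction. All 10 genes had a positive Log2FC, and in each of them every mouse at 5 days was above every mouse at 2 days, against 17.7% of all genes. Without surrogate variables 8 of 10 passed, with Gfap at an FDR of 0.096 and Steap4 at 0.23, and without the 3 mice that stood apart, none of which is in these groups, 9 of 10 passed. From 5 to 8 days, 0 of 10 passed in either direction in edgeR's test (2.15% of all genes), with FDR values from 0.18 to 0.98 and an unadjusted p under 0.05 for 1 of 10, Timp1, against 19.4% of all genes. The CPM of Serpina3n, Timp1 and S1pr3 lay lower in every mouse at 8 days than at 5 days, 3 of 10 against 6.59% of all genes, as in Timp1 with 4.7 to 11.2 CPM at 8 days. From 8 to 28 days, 0 of 10 passed as well (2.85% of all genes, FDR 0.13 to 0.99), with an unadjusted p under 0.05 for 1 of 10, Lcn2, against 22.2% of all genes. DESeq2's Wald test called 0 of 10 in both steps.

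The mean levels did not follow a common order over the groups. Gfap, Serpina3n, Cd44, Osmr and S1pr3 were highest on average in rAAV-OVA mice at 5 days, with means of 2548 ± 482, 547 ± 140, 130 ± 40.2, 43.0 ± 11.95 and 110 ± 41.2 CPM (SD, n = 4). Vim and Cp were highest in rAAV-OVA mice at 28 days, at 504 ± 326 and 105 ± 78.0 CPM. Lcn2, Steap4 and Timp1 were highest on average in rAAV-control mice at 2 days, at 192 ± 216, 19.5 ± 23.97 and 39.4 ± 49.9 CPM, where D743 held the highest value of each. By the median in place of the mean, the highest group of Lcn2 and Timp1 was rAAV-OVA at 5 days, with 194 and 32.9 CPM. For Steap4 it was rAAV-OVA at 28 days, with 18 CPM. For each of the 10 genes, the values of the group with the highest mean overlapped those of the next group in the order.

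Whether the difference between the vectors changed with time was tested as an interaction in the same model. The Log2FC between the vectors was negative at 2 days for all 10 genes, so these tests compare a negative with a mostly positive value. The Log2FC was more positive at 5 than at 2 days for all 10 genes, and the change passed for 8 of 10, against 9.98% of all genes. It did not pass for Gfap (1.60, FDR 0.051) and Steap4 (2.43, FDR 0.15). The Log2FC was also more positive at 28 than at 2 days for all 10 genes, and all 10 passed, against 13.2% of all genes. The size of the difference itself was not larger later in every gene, as Lcn2 went from −2.83 at 2 days to 2.39 at 5 days and 2.00 at 28 days. Without D743 the 2 day value of Lcn2 was −1.62, smaller in size than these later values, so the example rests on that mouse. The 2 day mice of both vectors enter both tests. Between 5 and 28 days, 0 of 10 passed in edgeR's test (6.18% of all genes in either direction, FDR 0.12 to 1), with an unadjusted p under 0.05 for 1 of 10, Steap4, against 27.1% of all genes, and DESeq2's Wald test called 0 of 10.

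Other genes that belong to the same processes were counted from lists compiled by hand, against the shares of all genes given above for the same comparisons. Lower in rAAV-OVA mice were 4.67%, 0.588% and 4.86% of all genes on days 5, 8 and 28, respectively. At 2 days 0 genes of any list passed between the vectors. Of 3 further genes often grouped with reactive astrocytes, all 3 rose at 5 days: Aspg, an asparaginase, by a Log2FC of 1.18 (FDR 0.027), Hspb1, a small heat shock protein, by 1.60 (FDR 0.0072), and Cxcl10, a chemokine that attracts T cells, by 4.81 (FDR 0.00031). At 8 days Aspg (1.46) and Cxcl10 (2.68) passed, at 28 days 0 of 3, with Log2FC values of 1.01 (FDR 0.059), 0.86 (FDR 0.12) and 2.07 (FDR 0.086) for Aspg, Hspb1 and Cxcl10. In rAAV-control mice at 2 against 28 days, Aspg passed with 1.76.

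Genes that have been labelled A1, after exposure to lipopolysaccharide, and A2, after ischemia, were counted separately. Of 11 A1-labelled genes tested, 8 were higher and 1 lower at 5 days, 8 higher at 8 days, and 9 higher and 1 lower at 28 days, with a median Log2FC of 2.58, 2.13 and 2.38 against −0.01, −0.03 and 0.01 over all genes. The largest Log2FC was that of Iigp1, an interferon-induced GTPase, at 5 days (5.11) and of Psmb8, a subunit of the immunoproteasome, at 28 days (3.07). Fbln5, an extracellular matrix gene, was lower at 5 days (−1.20). Of 11 A2-labelled genes tested, 8 were higher and 1 lower at 5 days, 4 higher at 8 days, and 5 higher and 1 lower at 28 days, with medians of 1.49, 0.70 and 1.18. Ptx3, a secreted pattern recognition protein, led at 5 days with 4.03. In rAAV-control mice at 2 against 28 days the counts were 1 of 11 for the A1-labelled genes (Ggta1, 1.44) and 6 of 11 for the A2-labelled genes (Tgm1, 5.86). The A1 list holds antigen presentation and interferon-induced genes that many cell types transcribe.

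Osmr signals through gp130 and STAT3, and 16 of 19 listed genes of this pathway were tested, with a median Log2FC of 0.24, 0.33 and 0.64 at 5, 8 and 28 days. At 5 days 6 were higher, led by the cytokine gene Lif (Log2FC 3.59, SE 0.42, FDR 5.8e-06) and by Socs3, an inhibitor induced by STAT3 (3.52, SE 0.58, FDR 0.00013). Lif was at 16.7 ± 9.20 CPM in rAAV-OVA mice at 5 days and at 1.03 ± 0.22 CPM in the controls (SD, n = 4 each). At 8 days 7 were higher, led by Clcf1 (2.85), and at 28 days 6 were higher, led by Socs3 (1.92). In rAAV-control mice at 2 against 28 days, Socs3 (2.99) and Stat3 (0.76) passed, 2 of 16. Of 7 tested cytokine and complement genes that act on astrocytes, 7, 7 and 6 were higher at 5, 8 and 28 days, with medians of 1.39, 1.55 and 2.07, Il1b leading at 5 days (4.61) and Tnf at 8 and 28 days (4.29 and 4.06). Tnf (4.90) and Il1b (4.51) were also higher in rAAV-control mice at 2 than at 28 days, 2 of 7. Tnf was at 0.474 to 4.76 CPM at 2 days and at 0 to 0.0802 CPM at 28 days, so its fitted value rests on very few counts.

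For most groups of partners of single members the median Log2FC was at most 0.43 at 5, 8 and 28 days, except for the neighbours of Serpina3n. Of 8 other filament genes, Nes, the filament of progenitors and reactive astrocytes, was higher at 5 days (1.32), and at 28 days Des was higher (0.93) and the neurofilament genes Nefl (−0.76) and Nefm (−0.69) lower, with 0 of 8 at 8 days. Of 7 genes for hyaluronan and other ligands of Cd44, the synthase gene Has2 was higher at 5 and 8 days (2.89 and 2.91), the osteopontin gene Spp1 led at 28 days (2.76), and Has3 was lower at 5 and 28 days (−1.38 and −1.75). Of 10 tested metalloproteases and inhibitors besides Timp1, 2, 2 and 4 were higher at 5, 8 and 28 days, led by Mmp14 (1.23), Adam17 (1.13) and Mmp2 (1.69), and Timp4 was lower at 5 days (−0.69) and Mmp16 at 28 days (−0.66). Of 9 genes of the sphingosine 1-phosphate system, 3 were higher on each of the 3 days, led by the kinase gene Sphk1 at 5 days (2.00) and by the leukocyte receptor S1pr4 at 8 and 28 days (3.02 and 2.52), and the receptor gene S1pr5 was lower at 5 days (−0.82). Of 17 genes of iron and copper handling, 1, 2 and 2 were higher, led by the heme oxygenase gene Hmox1 at 5 and 8 days (1.53 and 1.79) and the ferritin gene Ftl1 at 28 days (1.21), and 2 were lower at 5 days, the iron exporter gene Slc40a1 (−0.89) and the ferroxidase gene Heph (−0.74). In the Serpina3 gene cluster, all 3 tested neighbours of Serpina3n were higher on each of the 3 days, with medians of 4.0, 3.42 and 4.14 and with Serpina3f at 5.82 at 5 days. These are close copies of each other, and reads shared between them are divided by probability, so their single values are uncertain.

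Genes that mark astrocytes in any state were counted beside the 10 genes. Of 14 such markers, 0 were higher and 4 lower at 5 days in rAAV-OVA mice: Glul, the glutamine synthetase gene (−0.96), the connexin gene Gja1 (−0.91), Mlc1 (−0.67) and Gjb6 (−0.66). At 8 days 0 passed, and at 28 days 1 was higher, Sox9 (0.76). Their summed level was 6130 to 7310 CPM in rAAV-OVA mice at 5 days and 9340 to 10200 CPM in the controls of that day. In rAAV-control mice the sum was 7240 to 9000 CPM at 2 days and 7850 to 10400 CPM at 28 days, and 1 of 14 passed between these days, Aldh1l1 (0.73).

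Markers of immune cells moved with the 10 genes in several groups. Of 8 monocyte markers, all tested, 7, 6 and 5 were higher in rAAV-OVA mice at 5, 8 and 28 days and 5 in rAAV-control mice at 2 against 28 days, with median Log2FC values of 4.44, 3.05, 3.72 and 2.88. Their summed level was 122 to 285 CPM in rAAV-control mice at 2 days, highest in D743, 59.3 to 72.1 CPM at 28 days, and 397 to 572 CPM in rAAV-OVA mice at 5 days. Of 10 T cell markers 3 were tested, Cd8a, Trbc2 and Gzmb. All 3 were higher in rAAV-OVA mice at 5, 8 and 28 days, where the sum was 124 to 181, 172 to 562 and 32.5 to 659 CPM, and 0 of 3 were higher in rAAV-control mice at 2 against 28 days, at 2.53 to 6.18 and 0.87 to 2.54 CPM. Of 10 neutrophil markers only S100a8 and Csf3r were tested, and their sum was 12.6 to 54.7 CPM in rAAV-control mice at 2 days, highest in D743, and 3.66 to 6.74 CPM at 28 days. In rAAV-OVA mice, in which Lcn2 was also high, the sum was 25.9 to 35.6 CPM at 5 days against 5.19 to 17 CPM in the controls, with 0 of 2 called. It was 21.8 to 41.8 CPM at 8 days and 8.48 to 45.7 CPM at 28 days, and Csf3r passed on these days. Microglia markers summed to between 372 and 552 CPM in rAAV-control mice at 5 days, and all 4 rAAV-OVA mice of that day were above them, with 2 of 7 higher and 1 lower. At 28 days they summed to 391 to 1070 CPM in rAAV-OVA mice and 284 to 326 CPM in rAAV-control mice, with 4 of 7 higher. In rAAV-control mice at 2 days they summed to 444 to 536 CPM, above all rAAV-control mice at 28 days, with 1 of 7 higher. No tested marker of these lists was at 0 in every mouse of a group. The part of these cells in the levels of the 10 genes was not tested.

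The levels of other cell types also differed between mice. Choroid plexus and ependymal markers summed to 39.1 CPM in the lowest and 5300 CPM in the highest mouse, D845 being the highest, and D845 also had the highest Cp level, 207 CPM. Other mice with high sums did not have high Cp, as D684 with 5130 CPM and D851 with 4280 CPM had Cp at 21.25 and 21.73 CPM. In rAAV-OVA mice at 5 days, where Cp was at 61.5 to 89.8 CPM, the choroid plexus and ependymal sum was 56.4 to 156 CPM. In the controls of that day it was 155, 123 and 62.8 CPM, and 3790 CPM in D724, so the ranges overlapped. At the limits 5 of 8 markers were lower. At 28 days 2 of 8 were higher. Neuron markers summed to 7790 to 9210 CPM in rAAV-OVA mice at 5 days and 11100 to 14000 CPM in the controls, with 1 of 8 lower, and 4 of 8 were lower at 28 days. In rAAV-control mice they summed to 9380 to 10200 CPM at 2 days and 11200 to 12500 CPM at 28 days, with 0 of 8 called. Endothelial markers had 0 of 8 higher and 1 lower at 5 days and 3 higher at 28 days. At 28 days they summed to 254 to 410 CPM in rAAV-OVA mice, all above the 193 to 230 CPM of the controls. Mural and fibroblast markers had 0 of 8 called at 5 days and 3 higher at 28 days, with Col1a2 at 2.09. Of the rAAV-OVA mice at 28 days, D845 had a mural and fibroblast sum of 751 CPM against 207, 228 and 233 CPM in the others and 182 to 212 CPM in the controls. D845 also had the highest endothelial and the lowest neuron sum of its group and the highest level of 8 of the 10 genes, and without D845 8 of 10 genes passed at 28 days, as with it.

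**Figure D4:**
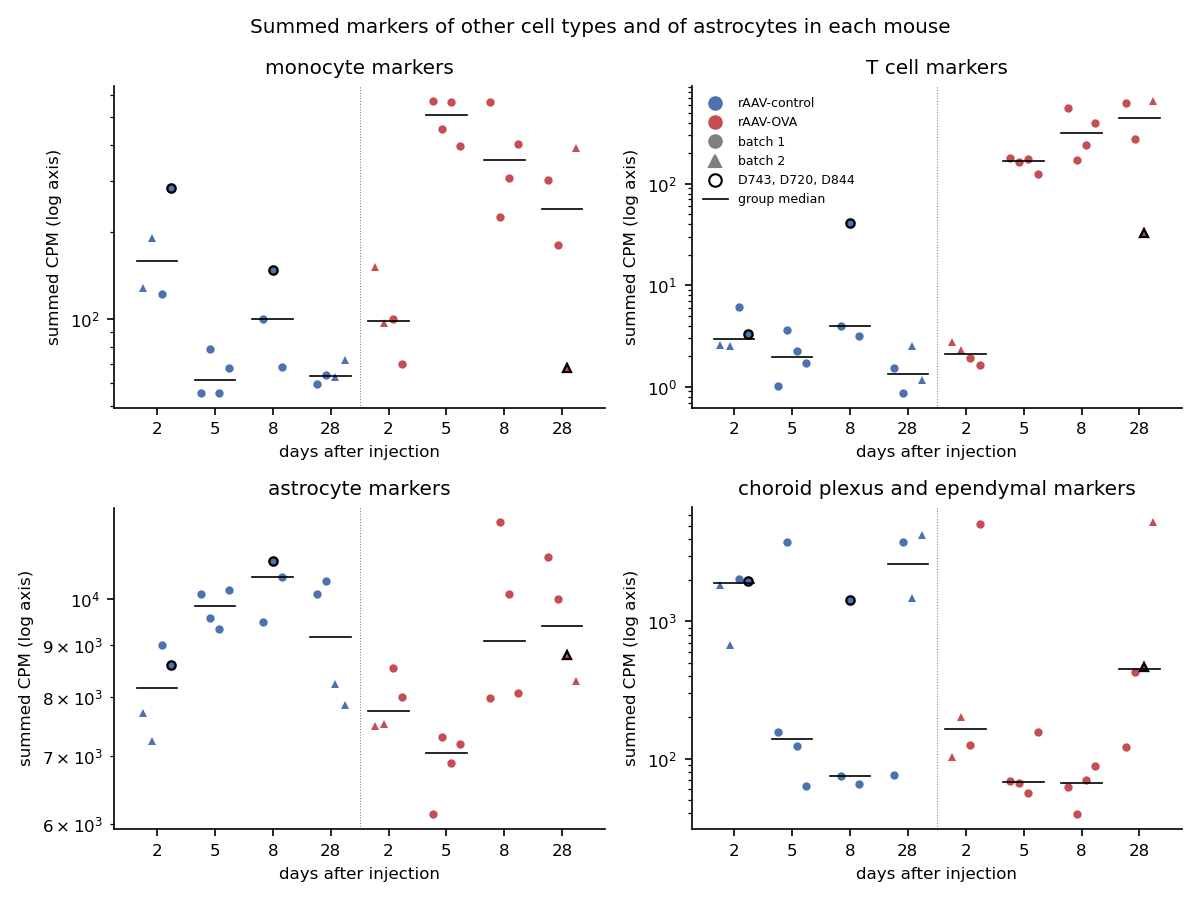
Summed CPM, on a log axis, of monocyte, T cell, astrocyte and choroid plexus with ependymal markers in every mouse, against days after injection, with symbols as for the levels of the 10 genes. T cell markers reach 124 to 181 CPM in rAAV-OVA mice at 5 days and stay at 6.18 CPM or below in rAAV-control mice at 2 days, while monocyte markers are raised in both.

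Pearson's r of log2 CPM between pairs of them lay between 0.783 and 0.964, the highest between Gfap and Serpina3n. As the mice share groups and tissue make-up, these values only describe the likeness of the patterns. Outside the 10 genes, the gene most like Gfap was Aspg (r = 0.948), followed by Tgm1 (0.937) and Itgam (0.935), a gene of myeloid cells. Tgm1, which encodes a transglutaminase, was also the most similar gene to Lcn2 (0.967) and Timp1 (0.970). For Vim these were Ggta1 and Msn (both 0.981), and for Cd44 Msn and Itpripl2 (both 0.970). Osmr was most like Tnfrsf1a, a TNF receptor gene (0.968), S1pr3 like Flnc (0.960), Serpina3n like C3ar1 (0.957) and Cp like Acp5 (0.959). Steap4 had the lowest best match, with Slc43a3 at 0.909.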

How the data were processed

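The 10 genes and all lists were chosen with earlier results of these data known. The authors trimmed paired-end reads with fastp, quantified them against GENCODE M29 with Salmon 1.8.0 and summed transcripts to genes. The deposited values are expected counts (estimated counts given as whole numbers), not normalized, for genes that reached 15 counts in 15 or more mice, and 0 value columns were left unused. The submitters' notes also name DESeq2 1.36.0. Counting error and the spread between mice are both estimated by the model.

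Counts were tested with edgeR 4.0.16 in R 4.3.3 (TMM scaling, robust quasi-likelihood F-test) over all 15648 genes, in a model of the 8 groups with 2 surrogate variables, found by sva 3.50.0, as in the authors' design. Surrogate variables are estimated from the counts, so fitted Log2FC values can differ from ratios of CPM. FDR values are Benjamini-Hochberg adjusted over all genes. A gene passed with an FDR up to 0.05 together with a Log2FC of 0.66 or more in either direction. The interactions with 2 days were added after the data were seen, as were the fits without 3 mice. Named genes are the 10 members, and of each list those with the largest change that passed in a direction, or all genes of short lists. Genes outside this rule were named after their values were seen, where 5 or fewer of a list had passed. Genes of the gp130 and STAT3 list that were lower are not reported here. Likeness used log2 CPM with a prior count of 2. Alternatives were DESeq2 1.42.0, its size factors, no covariates, the batch label, a stricter filter, batch 1 alone and each mouse left out. Steps were tested on simulated data. The authors' annotation and the GRCm38 reference differ in build, so coordinates belong to RefSeq promoters only. All pairs of mice within a group differed by more than counting noise.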

Additional observations from a re-analysis of the deposited data

Results flagged for a closer look

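Each of the 10 genes was searched in each of the 7 groups of 4 mice for a mouse far from the rest. In these 70 searches 5 were found, 3 of them in mouse D743, where chance gives about 1 in 20, and the genes are not independent of each other. Mouse D851 held 8.42 CPM of Lcn2 among rAAV-control mice at 28 days, where the next value was 0.32 CPM. Mouse D743 held 55.1 CPM of Steap4, 114 CPM of Timp1 and 174 CPM of Cp among rAAV-control mice at 2 days, with the next values at 9.75, 22.1 and 50.5 CPM. Mouse D725 held 46.0 CPM of Timp1 among rAAV-OVA mice at 5 days, with the next value at 32.9 CPM.

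The Log2FC between rAAV-OVA and rAAV-control mice was negative at 2 days for all 10 genes. It was more positive at 5 than at 2 days for all 10, and the change passed for 8 genes in the interaction test of edgeR. On the log2 scale the change was 2.81 for Vim (FDR 0.0078), 5.22 for Lcn2 (FDR 0.02), 2.72 for Serpina3n (FDR 0.0024), 4.04 for Cd44 (FDR 0.00071), 5.13 for Timp1 (FDR 0.0024), 2.20 for Osmr (FDR 0.0066), 2.65 for Cp (FDR 0.014) and 3.05 for S1pr3 (FDR 0.0032). It was also more positive at 28 than at 2 days for all 10 genes: by 1.84 for Gfap (FDR 0.02), 3.42 for Vim (FDR 0.0019), 4.83 for Lcn2 (FDR 0.034), 2.72 for Serpina3n (FDR 0.0021), 3.53 for Cd44 (FDR 0.0019), 5.21 for Steap4 (FDR 0.0046), 4.23 for Timp1 (FDR 0.015), 2.41 for Osmr (FDR 0.0034), 3.57 for Cp (FDR 0.002) and 2.98 for S1pr3 (FDR 0.0032). Both tests share the mice at 2 days, where D743 holds the highest level of every one of these genes. Without D743, Lcn2 did not pass at 5 days (4.02, FDR 0.068), nor Gfap (1.53, FDR 0.063), Lcn2 (3.60, FDR 0.12) and Timp1 (2.92, FDR 0.052) at 28 days.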

How the results depend on the processing

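No paired analysis was possible because the labels tie no mouse of a group to a mouse of another. Given here is how many of the 10 genes passed, and the cause of each shift was not tested. Without surrogate variables, 0 passed for rAAV-OVA against rAAV-control at 8 days (3 as reported, 1274 of all genes called), 0 for rAAV-control at 2 against 5 days (4 as reported, 11 of all genes) and 0 at 2 against 8 days (2 as reported, 0 of all genes), and 8 for rAAV-OVA at 5 against 2 days (1 as reported). With the batch label in their place these were 0, 0, 0 and 5. In batch 1 alone they were 1 at 8 days, 0 for 2 against 8 days and 6 for rAAV-OVA at 5 against 2 days, and Vim and Osmr were lost for 2 against 28 days (8 passed) and Cd44 and S1pr3 for 2 against 5 days (3 passed, with Cp gained). With DESeq2's Wald test they were 6, 8, 5 and 2, and Gfap was lost at 28 days (7 passed). With 15 counts in every mouse, which leaves 7 of the 10 genes, 1 passed for 2 against 5 days and 1 for 2 against 8 days. Without D743, D720 and D844, 10 passed at 8 days, 5 for 2 against 8 days, 9 for rAAV-OVA at 5 against 2 days, 1 (Timp1) for rAAV-OVA at 8 against 5 days and 1 (Steap4) for the response at 5 against 28 days.

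With each mouse left out, the numbers ran from 6 to 9 at 5 days, 0 to 8 at 8 days, 6 to 8 at 28 days, 3 to 10 for rAAV-control at 2 against 28 days, 0 to 9 against 5 days, 0 to 7 against 8 days, 1 to 2 for rAAV-OVA at 5 against 2 days, 0 to 1 for the response at 5 against 28 days, and 7 to 10 for both interactions with 2 days. At 2 days and between the later rAAV-OVA days they were 0 throughout. Direction reversed for Steap4 at 5 days, from −0.05 to 0.79 without covariates, 0.79 with the batch label, 0.78 in batch 1, 0.62 without the 3 mice and from −0.47 to 0.76 with a mouse left out, where it was above 0 without D725 (0.04), D787 (0.15) or D755 (0.76). Among 521 further values of comparisons between later days, in which 0 of the 10 genes passed, 68 changed sign and 3 passed. Few counts limit Timp1, Lcn2 and Steap4 in rAAV-control mice at 28 days.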
